A study of Saccharomyces cerevisiae with 9 samples.

Results

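This account describes how budding yeast, Saccharomyces cerevisiae, differed across all its genes when YET3 was overexpressed. The 3 libraries titled as overexpression repeats 1 to 3 were set against the 3 titled as control repeats 1 to 3, which are 6 of the 9 RNA-sequencing libraries of the series. In the overexpression strain (NATR::TEFpr-YET3) a nourseothricin-resistance marker and the promoter of the translation elongation factor gene TEF, a strong promoter active in all growing cells, stand before YET3. In the control strain (HO::NATR) the same marker stands at HO, the mating-type switching endonuclease gene. The other 3 libraries come from a strain labelled as a deletion (DelYET3::NATR) and are used here to estimate the spread and as a second comparison. The strains also carry HISDel1, LEU2Del0, MET15Del0 and URA3Del0, and the cells were harvested in exponential growth in SD, a synthetic glucose medium. Each library is titled a repeat, with no word on separate cultures or on the number of clones, so the p-values reflect library-to-library spread that may be technical.

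The YET3 product sits in the membrane of the endoplasmic reticulum and belongs to the BAP31-related family. Ergosterol, the main sterol of yeast membranes, is made from acetyl-CoA through mevalonate and squalene, and its late steps as well as fatty acid desaturation and part of heme synthesis use molecular oxygen. When sterol or oxygen is short, yeast is known to induce genes of these oxygen-using steps together with a set of cell wall mannoprotein genes, in part through the zinc-cluster activators Upc2 and Ecm22. In glucose, genes of the glyoxylate cycle, gluconeogenesis and the use of acetate and lactate are known to be held low.

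Before scaling, the 3 overexpression libraries held 613961, 651410 and 464074 counts and the 3 control libraries 701159, 1618016 and 223189 counts. Overexpression 3 stood apart from the other 5 libraries compared. Of all counts, the 5 YLR154W rows, within the ribosomal DNA repeat, took 1.26%, 1.85% and 0.162% of overexpression libraries 1 to 3, against 0.841%, 2.42% and 0.817% of control libraries 1 to 3. Together with the libraries labelled deletion 1 and 3, at 0.267% and 0.111%, it was separated along the leading principal component (47.6% of the variance). No control library is among these 3 low-YLR154W libraries, so counts and values are also given from a fit without them, which leaves 2 overexpression, 3 control and 1 deletion library, or from a fit in which a term marks them, where these differ. Markers of a-mating-type cells were present in both groups, with a summed level over 7 genes of 1376 to 1603 CPM (counts scaled to a common library size) in overexpression and 1631 to 1800 CPM in control. The 4 alpha-cell markers summed to 20.03 to 32.8 CPM in overexpression and 15.5 to 30.8 CPM in control, and 5 sporulation markers to 54.7 to 77.2 CPM in overexpression and 26.4 to 60.1 CPM in control.

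The promoters of the called genes were read for short sequence cores of known regulators, and the 5 below are shown because they hold a core that Upc2 binds within 250 bases before to 50 bases after the annotated start. The cores searched on both strands were the anaerobic element TCGTTNAG and the sterol response element TCGTATA, which share their first 4 letters and differ from the next letter on. Coordinates and sequence are those of RefSeq build R64: DAN1 at chrX:709658-709957 (minus strand), PBI1 at chrXVI:28115-28414 (minus strand), CYB5 at chrXIV:417253-417552 (minus strand), ATF2 at chrVII:850387-850686 (minus strand) and ERG4 at chrVII:472605-472904 (plus strand). Each run is written along the gene's own strand, with the matched core in capitals as it reads on that strand.
DAN1: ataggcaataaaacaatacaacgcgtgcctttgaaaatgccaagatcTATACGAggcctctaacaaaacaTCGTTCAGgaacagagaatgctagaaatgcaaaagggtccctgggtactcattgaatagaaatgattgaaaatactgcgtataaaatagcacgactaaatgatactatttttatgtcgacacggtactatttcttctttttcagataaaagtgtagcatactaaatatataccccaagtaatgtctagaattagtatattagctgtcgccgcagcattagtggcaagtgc
PBI1: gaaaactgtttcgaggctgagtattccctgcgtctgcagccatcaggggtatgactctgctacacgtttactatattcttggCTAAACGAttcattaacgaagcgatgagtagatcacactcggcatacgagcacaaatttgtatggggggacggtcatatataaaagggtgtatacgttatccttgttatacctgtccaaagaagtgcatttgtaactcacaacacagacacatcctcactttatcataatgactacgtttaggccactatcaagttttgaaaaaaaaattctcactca
CYB5: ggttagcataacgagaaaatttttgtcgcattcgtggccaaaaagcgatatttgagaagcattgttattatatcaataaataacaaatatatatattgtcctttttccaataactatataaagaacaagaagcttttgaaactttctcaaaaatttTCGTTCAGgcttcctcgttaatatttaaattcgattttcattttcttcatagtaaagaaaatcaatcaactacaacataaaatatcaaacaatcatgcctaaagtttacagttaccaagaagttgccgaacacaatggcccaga
ATF2: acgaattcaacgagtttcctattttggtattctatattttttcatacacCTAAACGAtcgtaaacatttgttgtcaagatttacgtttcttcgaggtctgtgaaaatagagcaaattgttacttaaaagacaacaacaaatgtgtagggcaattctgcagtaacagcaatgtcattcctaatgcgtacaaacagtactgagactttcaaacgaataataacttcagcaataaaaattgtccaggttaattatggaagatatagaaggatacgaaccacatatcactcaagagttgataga
ERG4: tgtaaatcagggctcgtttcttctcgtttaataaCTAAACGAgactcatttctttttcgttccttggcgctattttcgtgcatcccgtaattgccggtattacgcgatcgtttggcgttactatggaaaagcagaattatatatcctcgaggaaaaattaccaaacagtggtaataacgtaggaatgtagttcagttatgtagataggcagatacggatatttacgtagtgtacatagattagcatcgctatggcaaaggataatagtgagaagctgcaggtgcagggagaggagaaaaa

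DAN1 holds both cores, the sterol response element 203 and the anaerobic element 180 bases before its start. CYB5 holds the anaerobic core in the direction of the gene and PBI1, ATF2 and ERG4 hold it reversed, as CTAAACGA. In this 300-base window the anaerobic core lay in 5 of the 32 promoters of genes called higher (15.6%), in 0 of the 11 of genes called lower and in 2.75% of 5919 promoters of the annotation. The sterol response core lay in 2 of the 32 (6.25%), 0 of the 11 and 4.19% of all. With a window of 600 bases before the start, chosen after the data were seen, either core lay before 17 of the 32 genes called higher (53.1%), 2 of the 11 called lower (18.2%) and 13.8% of 5917 genes. ERG3 held 4 matches in that window, at 419, 358, 326 and 286 bases before its start, and ERG25 held 3. TIR1, TIR3, HES1, ERG1 and ERG28 also had a match there, and so did IDP2 and CWP1 among the genes called lower. The core ATTGTT of the hypoxic repressor Rox1 was in 16 of the 32 promoters of genes called higher, 5 of the 11 of genes called lower (45.5%) and 34.6% of all in the 300-base window. The stress element AGGGG was in 5 of the 32 (15.6%), 3 of the 11 (27.3%) and 21.9% of all there. All cores were searched on both strands. A match only says that these letters occur there.

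**Figure D1:**
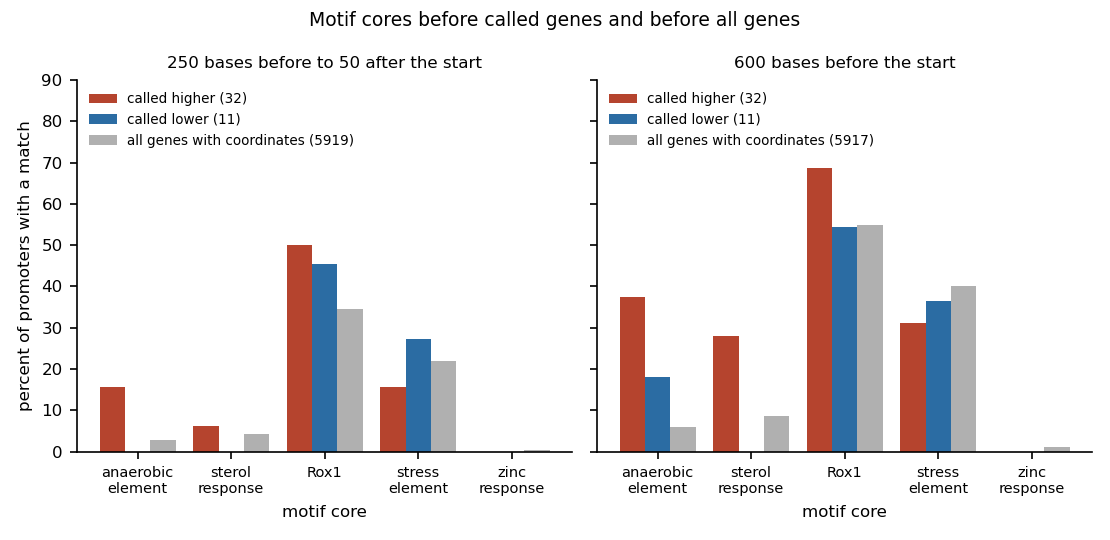
Share of promoters (percent, vertical axis) that hold each motif core, for genes called higher, genes called lower and all annotated genes, in a window of 250 bases before to 50 after the start (left) and of 600 bases before it (right). The anaerobic element core is at 15.6% and 37.5% for genes called higher, against 2.75% and 5.97% for all genes.

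Few genes were called between overexpression of YET3 and control with all libraries, and the largest called changes were rises. The number depended on the fit: with a term for the low-YLR154W libraries 72 genes were called higher and 41 lower. A gene that was not called may still have changed. Of 5090 genes tested, 32 (0.629%) were higher and 11 (0.216%) lower in overexpression than in control, 0.845% in all, and 96.7% of genes had a log2 fold change between -1 and 1. YET3 itself stood at 2261, 2029 and 1341 CPM in overexpression, against 477, 477 and 479 CPM in control, and its rise was in the middle of the called rises (log2 fold change 1.98, SE 0.30, adjusted p = 0.00627). The call of YET3 ended without control 1, 2 or 3 (adjusted p up to 0.0711). The other 31 higher genes summed to 7338, 7462 and 7912 CPM in overexpression and 1794, 1901 and 1776 CPM in control, which is 0.734% to 0.791% of a library against 0.178% to 0.190%. The 10 lower genes other than HO summed to 931, 1075 and 985 CPM in overexpression and 3041, 3118 and 3165 CPM in control. Since these genes were chosen for the difference, the sums describe its size and are no test of it.

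For all 43 called genes the ranges of the 2 groups were separate, while 17.0% of all tested genes showed no overlap. All 43 were also called in the fit without the low-YLR154W libraries and in the fit with a term for them. The number of calls varied with the library left out: 25, 19 and 35 genes were called higher when overexpression 1, 2 or 3 was left out, and 9, 13 and 18 when control 1, 2 or 3 was. Genes called lower numbered 4, 2 and 11 when overexpression 1, 2 or 3 was left out, and 2, 2 and 3 when control 1, 2 or 3 was. PBI1, TIR1, TIR3, DAN1, YPR145C-A, ERG3, NRG2, HSP26 and HEM13 were called higher, and ZPS1 and ICL1 lower, whichever of the 6 libraries was left out.

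**Figure D2:**
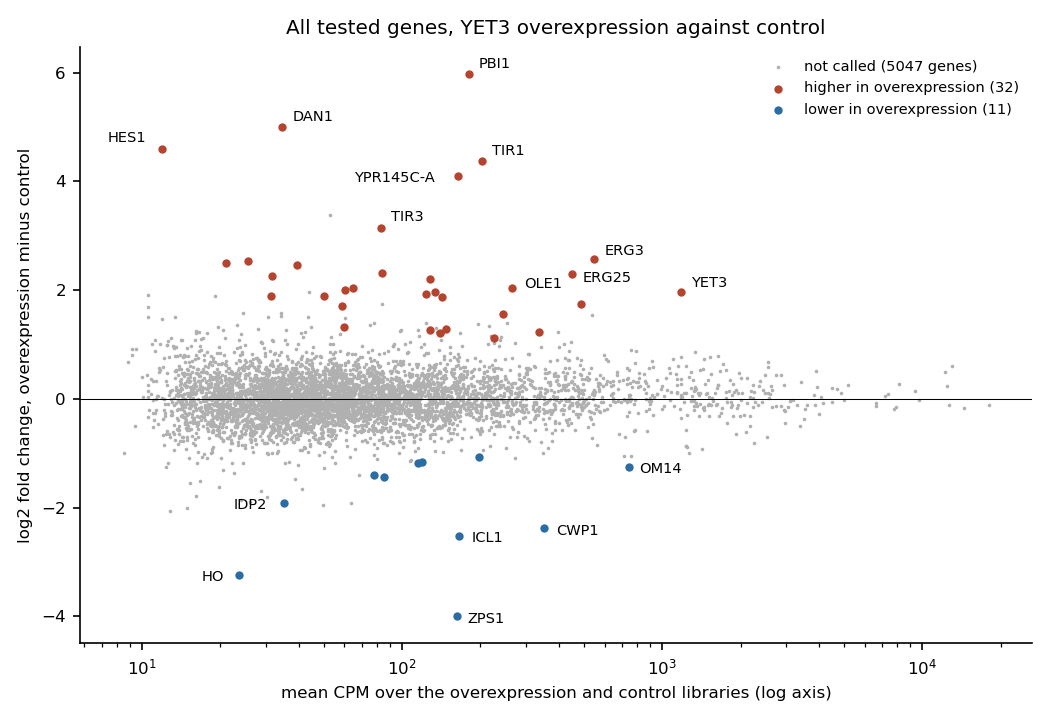
Log2 fold change of each tested gene (overexpression minus control, vertical axis) against its mean level in CPM (horizontal, log axis); red points are the 32 genes called higher, blue the 11 called lower and grey the 5047 not called. PBI1 is the highest at 5.97 and ZPS1 the lowest at -3.996.

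Enzymes of sterol synthesis formed the largest group of rises, from the thiolase that opens the pathway to the reductase that closes it. The 24 sterol synthesis genes together held 10591, 9722 and 7518 CPM in overexpression and 4223, 4180 and 4431 CPM in control, so they took 1.06%, 0.972% and 0.752% of the overexpression libraries and 0.418% to 0.443% of the control libraries. Of the 15 genes from squalene to ergosterol 7 rose and 0 fell, with a median log2 fold change of 1.12 beside -0.0019 for all genes. The median over this list was 1.38, 1.30 and 0.75 in overexpression 1, 2 and 3 and between -0.05 and 0.04 in the control libraries, on a log2(CPM + 2) scale relative to the control mean. All 15 were called higher without the low-YLR154W libraries (median 1.27) and 13 with a term for them. Of all genes 1.71% were called higher without those libraries, and 2.22% were called in either direction with the term.

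The step that makes squalene epoxide is catalysed by Erg1. ERG1 stood at 204, 246 and 228 CPM in overexpression and at 52.1, 78.5 and 44.0 CPM in control, so all 3 overexpression libraries were alike and well clear of the control range (log2 fold change 1.88, SE 0.32, adjusted p = 0.0148). Removal of a pair of methyl groups from one carbon of the sterol ring needs the oxidase Erg25, the dehydrogenase Erg26, the reductase Erg27 and the scaffold Erg28. ERG25 was at 995, 878 and 378.5 CPM in overexpression and 139, 186 and 123 CPM in control (2.30, SE 0.37, adjusted p = 0.00895). ERG28 was at 521, 668 and 1059 CPM in overexpression and 265, 218 and 185 CPM in control (1.74, SE 0.31, adjusted p = 0.0173). Overexpression 3 was therefore the lowest of its group for ERG25 and the highest for ERG28, within one enzyme complex. ERG26 was at 340, 318 and 433 CPM in overexpression and 134, 105 and 136 CPM in control (1.56, SE 0.24, adjusted p = 0.00741), while ERG27 at 422, 389 and 361 CPM against 253, 192 and 215 CPM missed the threshold (0.83, SE 0.21, adjusted p = 0.131).

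The desaturases of the last steps moved with them. ERG3, a sterol desaturase gene, was at 904.5, 804 and 1103 CPM in overexpression and 143.5, 174 and 154 CPM in control, the largest rise of the pathway (2.57, SE 0.23, adjusted p = 7.79e-05). ERG5, the gene of a later sterol desaturase, was at 78.4, 101 and 140.0 CPM in overexpression and 18.3, 33.1 and 17.6 CPM in control (2.05, SE 0.33, adjusted p = 0.00796). ERG4, which encodes the reductase that yields ergosterol, was at 275, 290.0 and 361 CPM in overexpression and 132, 146 and 149.5 CPM in control (1.12, SE 0.21, adjusted p = 0.0269). At the start of the pathway the acetoacetyl-CoA thiolase gene ERG10 was at 492, 500 and 418 CPM in overexpression and 181.5, 194 and 229 CPM in control (1.23, SE 0.25, adjusted p = 0.0370). It was the 1 called of 9 early genes, of which 8 had positive values (median 0.48). By library that median was 0.53, 0.395 and 0.55 in overexpression 1, 2 and 3 and -0.06 to 0.13 in control. With a term for the low-YLR154W libraries 2 of the 9 were called, ERG10 and MVD1 (0.88 for MVD1, adjusted p = 0.01), beside 2.22% of all genes. With 1 library left out, ERG5 was lost without control 1 (adjusted p = 0.0879), ERG26 without control 1 or 2 (up to 0.102), and ERG1 without control 1 or 3 or overexpression 2 (up to 0.139). ERG25, ERG28 and ERG4 were lost without any 1 control or overexpression 2 (up to 0.0953, 0.161 and 0.216), and ERG10 without any 1 control, overexpression 1 or overexpression 2 (up to 0.334).

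The genes that carry or store sterols moved less. Of 23 tested genes of sterol uptake, esters and transport 2 rose, with a list median of 0.25. HES1, a gene of an oxysterol-binding protein, had 38 counts in overexpression and 2 in control, a ratio of 27.9 per total count (95% counting interval 7.22 to 239; adjusted p = 0.00627). Its close relative KES1 had 88.5, 121 and 164 CPM in overexpression and 110, 103 and 92.3 CPM in control and was not called (0.27, SE 0.26, adjusted p = 0.855). ATF2, an alcohol acetyltransferase gene whose product acetylates sterols for export, was at 75.1, 55.2 and 76.6 CPM in overexpression and 9.85, 15.9 and 4.40 CPM in control (2.46, SE 0.37, adjusted p = 0.00627). Its relative ATF1 overlapped between groups, with 43.4, 80.4 and 61.3 CPM in overexpression and 46.4, 46.6 and 48.4 CPM in control (0.40, adjusted p = 0.770). HES1 was lost without control 1 or 2 (adjusted p up to 0.168) and ATF2 without control 1 (0.0711). ATF2 lies 406 bases from ERG1 on the same strand of chromosome VII.

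Of 17 tested fatty acid genes 1 rose and 1 fell with all libraries, and 6 rose and 1 fell without the low-YLR154W libraries. Of all genes 0.845% and 3.15% were called in these 2 fits. OLE1, the stearoyl-CoA desaturase gene, was at 387, 374 and 519 CPM in overexpression and 70.4, 136 and 101 CPM in control (2.03, SE 0.30, adjusted p = 0.00627). CYB5, the cytochrome that passes electrons to sterol and lipid desaturases, was at 76.8, 91.4 and 127 CPM in overexpression and 28.2, 25.1 and 13.2 CPM in control (2.00, SE 0.31, adjusted p = 0.00627). ELO1, an elongase gene for medium-chain fatty acids, fell to 35.0, 47.3 and 56.9 CPM in overexpression, against 129.5, 135 and 105.5 CPM in control (-1.44, SE 0.26, adjusted p = 0.0197). Its relatives ELO2 and ELO3 were not called (0.25 and 0.04, adjusted p = 0.906 and 0.982). The list median was 0.25 with all libraries and 0.09 without the low-YLR154W libraries. Besides OLE1, the genes called higher in that fit were FAS1, FAS2, FAA4, ACB1 and ACC1, and all but ACC1 were also called with a term for those libraries. ACC1, the acetyl-CoA carboxylase gene, was at 1193, 1184 and 1744 CPM in overexpression and 763, 895 and 818 CPM in control (0.73, adjusted p = 0.286, and 0.52 without those libraries, adjusted p = 0.0285). YSR3, a sphingoid base phosphate phosphatase gene, was at 76.8, 52.0 and 105 CPM in overexpression and 22.5, 17.8 and 26.4 CPM in control (1.89, SE 0.36, adjusted p = 0.0269), whereas its paralogue LCB3 was at 46.7, 53.6 and 21.9 CPM against 66.1, 82.1 and 52.7 CPM (-0.75, adjusted p = 0.704). OLE1 was lost without control 1 (adjusted p = 0.0659), CYB5 without control 1 or 2 (up to 0.0765), ELO1 without control 1 or 2 or overexpression 1 or 2 (up to 0.161) and YSR3 without any 1 control or overexpression 1 (up to 0.334). Of 22 tested genes of sphingolipid synthesis, a list that does not hold YSR3, and of 20 of triacylglycerol and lipid droplets, none were called in any of the 3 fits.

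The cell wall mannoprotein genes that yeast expresses without oxygen were among the largest rises. TIR1 stood at 380.5, 432 and 348 CPM in overexpression and at 9.85, 23.3 and 22.0 CPM in control (4.38, SE 0.30, adjusted p = 1.31e-05). TIR3 stood at 170, 186 and 87.5 CPM in overexpression and at 15.5, 15.9 and 22.0 CPM in control (3.15, SE 0.37, adjusted p = 0.00115). DAN1 had 118 counts in overexpression and 5 in control, a ratio of 34.7 per total count (95% counting interval 14.5 to 109; adjusted p = 0.00115). In each case the lowest overexpression library lay above every control library. Not all members did so: TIR4 was at 40.1, 52.0 and 15.3 CPM in overexpression and 12.7, 12.9 and 61.5 CPM in control (0.84, adjusted p = 0.787), and TIR2 stayed below 10 CPM in all 6 libraries and was not tested. Of 16 genes of this list 6 had enough counts to be tested, so their median of 2.12 describes those 6 only (1.11 over the 8 tested without the low-YLR154W libraries), and these genes share sequence, so reads could have been split between them in counting.

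The list of genes tied to low oxygen or low heme showed 4 rises among 13 tested and 0 falls with all libraries, with a median of 0.35. Without the low-YLR154W libraries 5 of 14 rose and 0 fell, beside 3.15% of all genes called. With a term for them 5 of 13 rose and 0 fell, beside 2.22% of all genes called. This list, PBI1 included, was chosen with earlier results of these data known. Its rises therefore describe its members and are no test of a low-oxygen response. HEM13, the coproporphyrinogen oxidase of heme synthesis, was at 197, 210 and 184 CPM in overexpression and 46.4, 59.5 and 44.0 CPM in control (1.93, SE 0.24, adjusted p = 0.00154). The other 7 tested genes of heme synthesis were not called. SCM4, a mitochondrial outer membrane protein gene, was at 112, 101 and 59.1 CPM in overexpression and 28.2, 30.03 and 22.0 CPM in control (1.70, SE 0.31, adjusted p = 0.0199); this call was lost without any 1 control or without overexpression 1 or 2 (up to 0.168). PBI1, of which no role is given here, was at 417, 389 and 263 CPM in overexpression and 4.22, 7.35 and 0 CPM in control, 617 counts against 15, a ratio of 60.5 per total count (95% counting interval 36.4 to 109; adjusted p = 3.47e-05). CYB5, counted above, was the fourth rise of the list with all libraries. Other oxygen-regulated genes were not called with all libraries. COX5B was at 202, 281 and 363 CPM in overexpression and 284, 246 and 255 CPM in control (0.10, adjusted p = 0.945). CYC7 was at 100.1, 145.0 and 168.5 CPM in overexpression and 232, 187.5 and 145 CPM in control (-0.47, adjusted p = 0.767), and the repressor gene ROX1 was at 76.8, 101 and 45.9 CPM against 139, 124 and 96.7 CPM (-0.70, adjusted p = 0.744), so these 3 genes overlapped between groups. ANB1, a hypoxic translation factor gene, and CYC1, a cytochrome c gene, showed no overlap, as did 17.0% of all tested genes. ANB1 was at 26.7, 29.95 and 30.6 CPM in overexpression and 7.04, 17.2 and 13.2 CPM in control (1.13, adjusted p = 0.444). CYC1 was at 68.4, 53.6 and 28.4 CPM in overexpression and 76.0, 83.4 and 83.5 CPM in control (-0.66, adjusted p = 0.686).

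Other rises touched the plasma membrane, transcription and stress. NRG2, a repressor of glucose-repressed genes, was at 174, 189 and 273.5 CPM in overexpression and 47.9, 48.4 and 35.2 CPM in control (2.21, SE 0.31, adjusted p = 0.00324), while its paralogue NRG1 was at 30.04, 28.4 and 45.9 CPM against 35.2, 52.1 and 30.8 CPM (-0.29, adjusted p = 0.890). FHN1, a membrane protein gene of the Nce102 family, was at 35.0, 64.6 and 54.7 CPM in overexpression and 14.1, 7.97 and 13.2 CPM in control (2.26, SE 0.38, adjusted p = 0.0107), and its paralogue NCE102, at 507, 517 and 580 CPM against 804, 1064 and 615 CPM, lay on the other side (-0.64, adjusted p = 0.596). NCE102 was called lower without the low-YLR154W libraries (-0.72, adjusted p = 0.0109) and with a term for them (-0.75, 0.0453), and NRG1 was not called there. IZH4, a membrane protein gene of the progestin and adiponectin receptor family, was at 40.1, 34.7 and 56.9 CPM in overexpression and 12.7, 4.90 and 4.40 CPM in control (2.54, SE 0.53, adjusted p = 0.0432), from 72 and 18 counts. IZH2 at 0.88 (adjusted p = 0.294), IZH1 at 0.44 (0.777) and IZH3 at 0.12 (0.935) were not called. FHN1 was lost without control 1 or 2 or overexpression 2 (adjusted p up to 0.213), and IZH4 without any 1 of the 6 libraries (up to 0.532).

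The small heat shock protein gene HSP26 was at 227, 230.1 and 182 CPM in overexpression and 73.2, 42.3 and 48.4 CPM in control (1.96, SE 0.26, adjusted p = 0.0022), and it was the 1 called gene among 29 heat shock chaperone genes with all libraries. The median of that list was -0.04 with all libraries, 0.17 without the low-YLR154W libraries and 0.14 with a term for them. By library it was 0.22, 0.12 and -0.23 in overexpression 1, 2 and 3 and -0.06 to 0.06 in control. Without those libraries 1 of 29 was called higher and 1 lower, beside 3.15% of all genes. With a term for them the counts were the same, beside 2.22% of all genes. TSA2, a thioredoxin peroxidase gene, was at 189, 222 and 129 CPM in overexpression and 80.2, 66.2 and 83.5 CPM in control (1.26, SE 0.26, adjusted p = 0.0432). Its abundant paralogue TSA1 was at 2672, 2219 and 2175 CPM in overexpression and 2059, 2049 and 2391 CPM in control (0.12, adjusted p = 0.923). NQM1, a transaldolase gene, was at 65.1, 82.0 and 109 CPM in overexpression and 36.6, 31.3 and 35.2 CPM in control (1.32, SE 0.26, adjusted p = 0.0318), and its paralogue TAL1 gave 0.15 (adjusted p = 0.915). SNZ1, of pyridoxine synthesis, was at 200.3, 164 and 214 CPM in overexpression and 69.0, 82.1 and 105.5 CPM in control (1.21, SE 0.23, adjusted p = 0.0269). For HSP26, TSA2, NQM1 and SNZ1 every overexpression library was above every control library. TSA2, NQM1 and SNZ1 were each called with only 1 of the 6 libraries left out (adjusted p up to 0.447, 0.380 and 0.266), NQM1 without overexpression 1 and the other 2 without overexpression 3.

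In no list were 6 rises, of genes that are mostly without a described role. YPR145C-A was at 200.3, 284 and 440 CPM in overexpression and 23.9, 12.3 and 22.0 CPM in control (4.10, SE 0.38, adjusted p = 7.79e-05). OSW2, named for the outer spore wall, was at 125, 136 and 157.5 CPM in overexpression and 28.1, 26.3 and 30.8 CPM in control (2.32, SE 0.36, adjusted p = 0.00627), and it lies 2883 bases from ERG3 on chromosome XII. YMR317W had 57 counts in overexpression and 14 in control (2.49, SE 0.49, adjusted p = 0.0318), and YMR315W-A, 2971 bases away on chromosome XIII, was at 199, 188 and 245 CPM against 90.1, 92.5 and 70.3 CPM (1.28, SE 0.24, adjusted p = 0.0241). YJL213W was at 41.7, 34.7 and 72.2 CPM in overexpression and 11.3, 14.1 and 13.2 CPM in control (1.89, SE 0.35, adjusted p = 0.0243), and YSR3 is described above. OSW2 was lost without control 1 or 2 (adjusted p up to 0.0894), YMR317W and YMR315W-A without any 1 of control 1, control 2, overexpression 1 and overexpression 2 (up to 0.518 and 0.161), YMR315W-A also without control 3, and YJL213W without any 1 control or overexpression 3 (up to 0.208). Of the 43 called genes 10 (23.3%) had another called gene within 10 kb, and of 5016 tested genes with coordinates 352 (7.02%) had a called gene that near. Besides the pairs named, NQM1, SCM4, MUP1 and ERG25 follow each other on chromosome VII at gaps of 9878, 7540 and 9423 bases. None of the 43 overlaps another annotated gene.

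**Figure D3:**
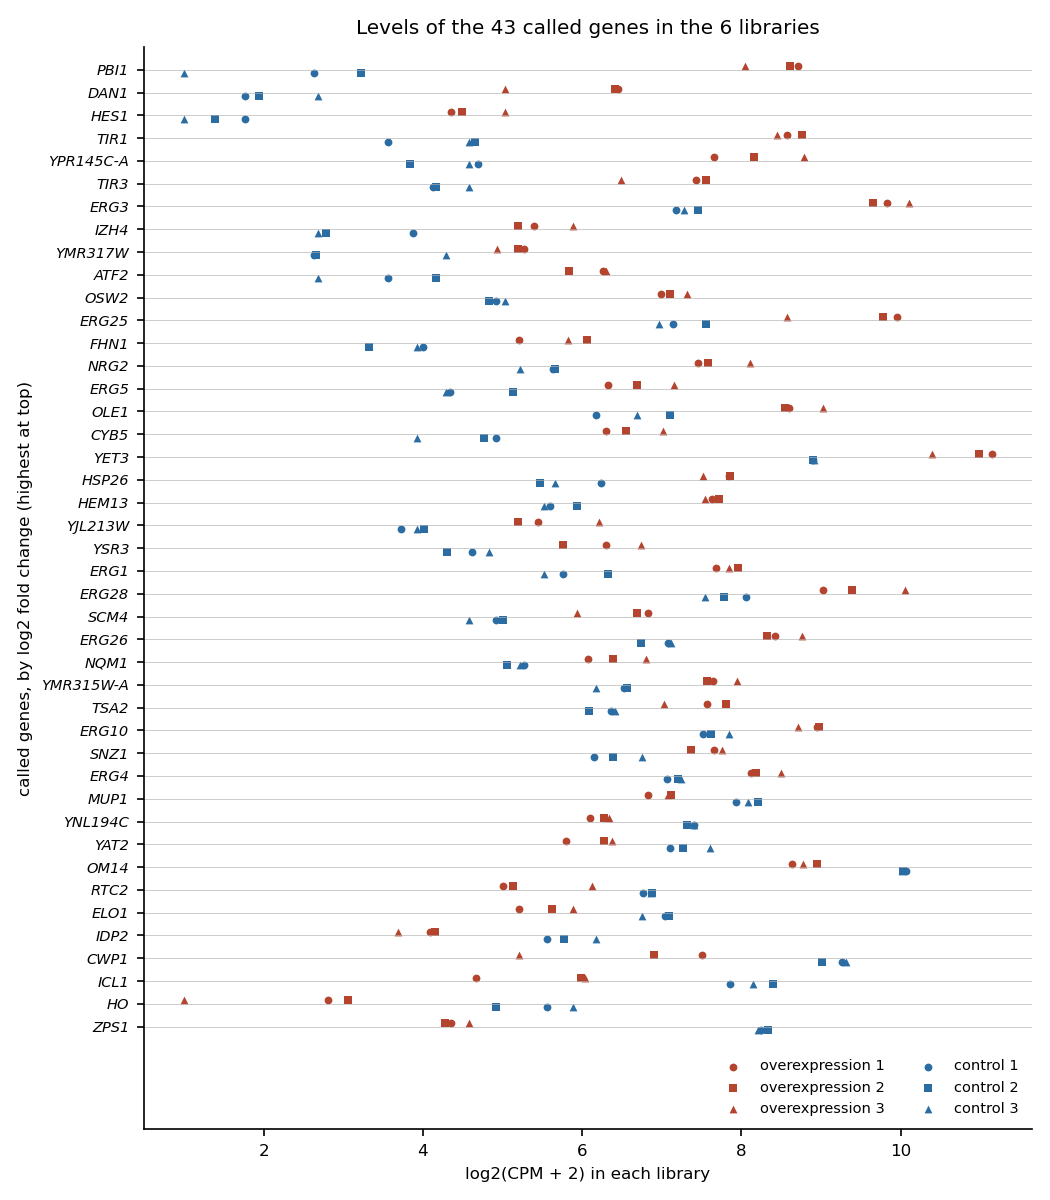
Level of each of the 43 called genes in each library, as log2(CPM + 2), with genes ordered by log2 fold change; red marks are overexpression libraries 1 to 3 and blue marks control libraries 1 to 3. For every gene the red and blue marks do not overlap, and overexpression 3 (red triangle) is the lowest red mark for ERG25, TIR3, DAN1 and CWP1.

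Among the falls were genes for growth on carbon sources other than glucose, whose list had the lowest median of the 65 lists. ICL1, the isocitrate lyase of the glyoxylate cycle, was at 23.4, 61.5 and 63.5 CPM in overexpression and 231, 334 and 281 CPM in control (-2.52, SE 0.34, adjusted p = 0.00293). IDP2, the cytosolic isocitrate dehydrogenase gene, was at 15.02, 15.8 and 10.9 CPM in overexpression and 45.0, 52.7 and 70.3 CPM in control (-1.92, SE 0.38, adjusted p = 0.0318), from 24 and 134 counts. These are the 2 called of 21 tested genes of the glyoxylate cycle and gluconeogenesis, of which 18 had negative values and the median was -0.87. By library the median was -0.77, -0.80 and -1.02 in overexpression 1, 2 and 3 and -0.04 to 0.10 in the control libraries. In the libraries labelled deletion it was -0.71, -0.68 and -0.69, close to the overexpression values, and that difference was not tested for the list. The related genes ICL2 and IDP1, for mitochondrial enzymes, gave 0.05 and 0.26 (adjusted p = 0.978 and 0.910). IDP2 was lost without any 1 of the 6 libraries (adjusted p up to 0.208).

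Without the low-YLR154W libraries 13 of 22 tested genes of this list were called lower and 0 higher (median -0.89), and 9 of 21 with a term for those libraries. Of all genes 1.44% were called lower without those libraries, and 2.22% were called in either direction with the term. SFC1, the succinate-fumarate carrier gene, was at 8.34, 20.5 and 30.6 CPM in overexpression and 40.8, 79.7 and 119 CPM in control (-1.95, adjusted p = 0.180, and -2.29 without those libraries, adjusted p = 2.61e-04). ADY2, an acetate transporter gene, was at 3.34, 9.46 and 17.5 CPM in overexpression and 32.4, 29.4 and 26.4 CPM in control (-1.62, adjusted p = 0.213, and -2.18, adjusted p = 0.00366). MLS1, the malate synthase gene, was at 15.02, 45.7 and 15.3 CPM in overexpression and 67.5, 103 and 136 CPM in control (-1.91, adjusted p = 0.131, and -1.64, adjusted p = 0.00104). In all 3 the overexpression libraries lay below every control library, while 17.0% of all tested genes showed no overlap in either direction. Against the libraries labelled deletion none of the 3 was called: MLS1, at 29.0, 42.5 and 7.99 CPM there, gave -0.12 (adjusted p = 0.978), SFC1 -1.11 (0.777) and ADY2 -1.58 (0.267). PCK1, of gluconeogenesis, gave -1.18 (adjusted p = 0.180) with all libraries and -1.40 (0.0042) without those 3. The lactate permease gene JEN1 differed widely among the overexpression libraries, with 73.4, 266 and 422 CPM against 405, 428 and 585 CPM in control. Its log2 fold change was -0.89 with all libraries (adjusted p = 0.744) and -1.42 without those 3 (adjusted p = 7.92e-04). The overexpression 3 value of JEN1 lay within the control range. FBP1, of gluconeogenesis, was also called lower without those libraries, but it lay above every control library in overexpression 3. Relative to the control mean on the log2(CPM + 2) scale, FBP1 was at -0.98 in the mean of overexpression 1 and 2. In overexpression 3 it was at 0.26. The regulator genes CAT8 (-0.87) and ADR1 (-0.80) were not called in any of the 3 fits (adjusted p = 0.424 and 0.463 with all libraries).

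Transport of acetyl groups and respiration changed less. YAT2, a carnitine acetyltransferase gene, fell to 53.4, 75.7 and 81.0 CPM in overexpression, against 135, 152 and 193 CPM in control (-1.17, SE 0.25, adjusted p = 0.0477), the 1 called of 19 tested genes of the carnitine shuttle and peroxisomal beta-oxidation, of which 17 had negative values (median -0.32). OM14, an abundant mitochondrial outer membrane protein gene, fell to 397, 493 and 435 CPM in overexpression, against 1070, 1043 and 1033 CPM in control (-1.25, SE 0.21, adjusted p = 0.0107). The control libraries lay close together for OM14, and the highest overexpression library was well below them. The libraries labelled deletion were also below control, at 563, 730 and 565 CPM for OM14 and 95.2, 109 and 85.3 CPM for YAT2. Overexpression minus deletion gave -0.49 for OM14 (adjusted p = 0.652) and -0.48 for YAT2 (adjusted p = 0.780). Of 36 genes of the respiratory chain and ATP synthase, 20 of the TCA cycle and 70 of mitochondrial ribosomal proteins none were called, with medians of -0.13, -0.11 and -0.12. Without the low-YLR154W libraries the medians were -0.23, -0.07 and -0.08. In that fit 34 of 37 tested respiratory chain genes had negative values, beside 2695 of all 5262 genes. It called 2.7% of that list and 3.15% of all genes. By library the respiratory chain median was -0.308, -0.084 and -0.026 in overexpression 1, 2 and 3 and -0.098 to 0.055 in control, so only overexpression 1 lay below the control range. NDE1, an external NADH dehydrogenase gene of the mitochondrion, was the 1 respiratory chain gene called without the low-YLR154W libraries (-0.74, and -0.58 with all libraries, adjusted p = 0.690). YAT2 and OM14 were lost without any 1 control and without overexpression 1 or 2 (adjusted p up to 0.241 and 0.0879).

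The largest fall was that of ZPS1, a zinc- and pH-regulated cell surface protein gene, with 18.4, 17.3 and 21.9 CPM in overexpression and 301, 320.5 and 294.5 CPM in control (-3.996, SE 0.32, adjusted p = 3.47e-05). Other zinc genes did not follow it together: of 21 tested, NRG2 and IZH4 rose and ZPS1 fell, with a median of -0.18 (-0.08 without the low-YLR154W libraries). ZRT1, the high-affinity zinc transporter gene, was at 174, 147 and 208 CPM in overexpression and 328, 360 and 294.5 CPM in control, without overlap (-0.91, adjusted p = 0.294, and -1.06 without the low-YLR154W libraries, adjusted p = 9.54e-05), and ZRT2 gave -0.19 (adjusted p = 0.895). ZPS1 held 0 matches of the zinc response core CCTTNAAGG in its 300-base window, a core found in 0.439% of all promoters.

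CWP1, a cell wall mannoprotein gene, was at 180.2, 118 and 35.0 CPM in overexpression and 614, 513 and 637 CPM in control (-2.38, SE 0.50, adjusted p = 0.0452). Overexpression 3 was the lowest by far, and the log2 fold change was -1.96 without the low-YLR154W libraries (adjusted p = 8.18e-09). With all libraries CWP1 was the 1 called of 27 tested cell wall proteins of aerobic cells, and its abundant relative CWP2 gave -0.25 (adjusted p = 0.879). Without the low-YLR154W libraries 2 of 28 were called higher and 1 lower, beside 3.15% of all genes. With a term for them 2 of 27 were called higher and 1 lower, beside 2.22% of all genes. YNL194C, of the Sur7 family of eisosome proteins, fell to 66.8, 75.7 and 78.8 CPM in overexpression, against 167.5, 157.5 and 167 CPM in control (-1.15, SE 0.24, adjusted p = 0.0432). PUN1, another member of that family, lay on the other side at 683, 612 and 497 CPM in overexpression and 269, 294 and 312 CPM in control, and missed the threshold (1.04, adjusted p = 0.0624, and 1.16 without the low-YLR154W libraries, adjusted p = 2.05e-06). SUR7 itself gave -0.49 (adjusted p = 0.767). FMP45, a further member, was at 16.7, 7.88 and 4.38 CPM in overexpression and 11.3, 7.97 and 13.2 CPM in control and was not tested with all libraries. CWP1 was lost without any 1 control or overexpression 2 (adjusted p up to 0.208), and YNL194C without any 1 control and without overexpression 1 or 2 (up to 0.216). YNL194C was also below control in the libraries labelled deletion, at 111, 120 and 72.0 CPM. Overexpression minus deletion gave -0.48 for it (adjusted p = 0.777).

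Falls in amino acid transport were those of MUP1, a methionine permease gene, at 112, 137 and 133.5 CPM in overexpression and 242, 295 and 268 CPM in control (-1.08, SE 0.21, adjusted p = 0.0348), and of RTC2, a gene for a vacuolar transporter of basic amino acids, at 30.04, 33.1 and 67.8 CPM against 107, 116 and 114 CPM (-1.39, SE 0.29, adjusted p = 0.0481). Both were lost without any 1 control and without overexpression 1 or 2 (adjusted p up to 0.301 and 0.322). MUP1 was the 1 called of 28 genes of sulfate assimilation and methionine, with a median of -0.42. Without the low-YLR154W libraries 6 of the 28 were called lower and 0 higher, beside 1.44% of all genes lower, and the median was -0.24. MHT1 and MMP1, for the use and uptake of S-methylmethionine, were among them (-1.46 and -1.73, adjusted p = 0.033 and 0.00371), as were the activator gene MET32 (-1.90, 0.0293) and STR3, for cystathionine beta-lyase (-1.80, 0.0071). The sulfate assimilation genes MET3 and MET16 gave 0.05 and -0.01 in that fit (adjusted p = 0.978 and 0.995). HO was at 5.01, 6.31 and 0 CPM in overexpression and 45.0, 28.2 and 57.1 CPM in control, 7 counts against 91 (adjusted p = 0.0318). It is the gene at which the control strain carries its marker. In the libraries labelled deletion HO was at 2.96, 7.59 and 0 CPM, as low as in overexpression. Overexpression minus deletion gave 0.13 for it (adjusted p = 0.993). The call of HO ended without any 1 control and without overexpression 1 or 2 (adjusted p up to 0.188).

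Most other main programs of the cell held no called gene with all libraries. Of 65 lists of pathways and complexes 19 had at least 1 called member, and 1 of these, translocon and signal peptidase, had it through YET3 itself. In 27 lists no member was called in any of the 3 fits. Of 137 cytosolic ribosomal protein genes none were called (median 0.08), nor were any of 61 ribosome biogenesis genes (0.05), 32 translation factors (0.05), 21 glycolysis and fermentation genes (0.05), 35 proteasome and ubiquitin genes (0.21), 11 histone genes (0.18) or 35 genes of vesicle transport between endoplasmic reticulum and Golgi (0.16). Of 27 genes of endoplasmic reticulum chaperones and the unfolded protein response none were called (median 0.19, and 21 with positive values). Without the low-YLR154W libraries that median was 0.29 and 2 members were called, KAR2, the main chaperone of the endoplasmic reticulum (0.63, adjusted p = 0.00805), and ERV2, a thiol oxidase gene (-0.60, adjusted p = 0.0372). That fit called 3.15% of all genes. In it the medians of ribosome biogenesis, glycolysis and fermentation and histone genes were -0.04, 0.13 and 0.09, with 0 called. Among 22 genes expressed from mitosis to G1, 21 had negative values (median -0.58) and 0 were called. For that list the median was -0.33, -0.33 and -0.83 in overexpression 1, 2 and 3 and between -0.05 and 0.10 in control. Of its members 2 of 22 were called lower without the low-YLR154W libraries, beside 1.44% of all genes.

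**Figure D4:**
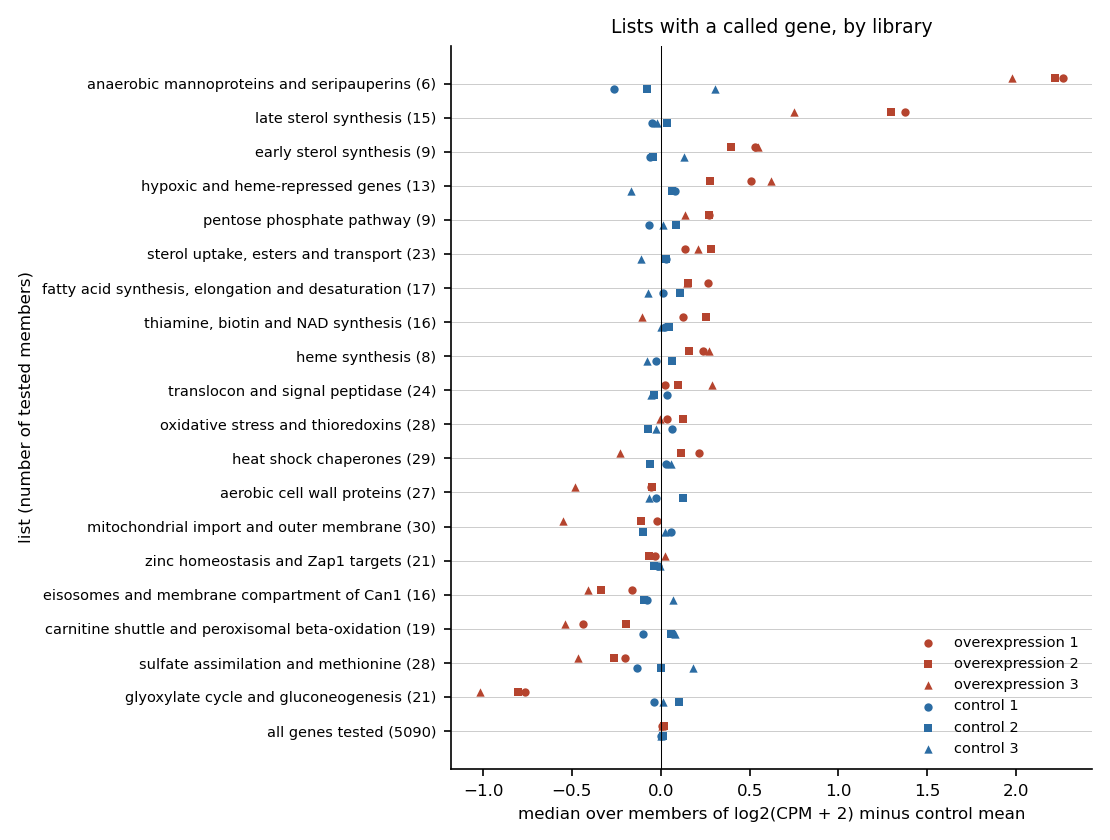
Median over the tested members of each list of log2(CPM + 2) minus its mean over the control libraries (horizontal axis), for the 19 lists with a called gene and for all tested genes; red marks are overexpression and blue marks control libraries. The medians of late sterol synthesis are 1.38, 1.30 and 0.75 and those of the glyoxylate cycle and gluconeogenesis -0.77, -0.80 and -1.02 in overexpression 1 to 3, while those of all genes stay at 0.01 to 0.02.

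Leaving out the low-YLR154W libraries gave 90 higher (1.71%) and 76 lower (1.44%) of 5262 genes, 3.15% in all, and a term for them called 2.22% of 5090 genes. The 123 genes called there but not in the fit of all libraries without a term comprised 58 higher and 65 lower, and 70 of them were also called with the term. Overexpression 3 took no part in that fit, and its values are set beside those calls as a description. The calls and the ranges below use the same 3 control libraries, so genes chosen for high or low controls lie apart from them in part by that choice, and the shares over all genes are not what no change would give. Of the 90 genes called higher, 70 (77.8%) were above every control library in overexpression 3, 6 within and 14 (15.6%) below the control range, while 36.8% of all tested genes were above it. Of the 76 called lower, 61 (80.3%) were below every control library in overexpression 3, against 38.8% of all tested genes, and 5 were above. Over the 58 higher genes not called with all libraries the count above was 38 (65.5%), and over the 65 lower ones the count below was 50 (76.9%).

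The genes that went the other way in overexpression 3 were of lipid synthesis in part. ERG6, the sterol methyltransferase gene, was at 861, 621 and 151 CPM in overexpression 1, 2 and 3 and 317, 292 and 391 CPM in control. FAS2, a fatty acid synthase subunit gene, was at 2765, 2383 and 1098 CPM in overexpression and 1282, 1236 and 1517 CPM in control, whereas FAS1, the gene of the other subunit, was at 1779, 1717 and 1680 CPM against 1002, 887 and 941 CPM. In overexpression 3 the 2 subunit genes thus lay on opposite sides of the control range. ERG2, NCP1, FAA4 and ACB1 were also below every control library there. The genes called lower that lay above every control library in overexpression 3 were ENA2, CHO1, PRM10, YLR112W and FBP1. ERG11 and UPC2 did not go the other way: both stayed above every control library in overexpression 3, though lower than in overexpression 1 and 2. ERG11, the lanosterol demethylase gene, was at 1126, 957 and 315 CPM in overexpression and 238, 303 and 281 CPM in control (1.55, SE 0.43, adjusted p = 0.207, and 1.92 without the low-YLR154W libraries, adjusted p = 1.75e-10). UPC2, the activator gene, was at 53.4, 52.0 and 28.4 CPM in overexpression and 14.1, 16.5 and 17.6 CPM in control (1.504, SE 0.38, adjusted p = 0.131, and 1.72, adjusted p = 3.29e-04).

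Other genes called higher without those libraries, but not with all, included SRO77, of exocytosis, at 50.1, 41.0 and 17.5 CPM in overexpression and 12.7, 11.6 and 13.2 CPM in control (1.89, adjusted p = 5.91e-04), and GSC2, a glucan synthase subunit gene, at 118.5, 88.3 and 52.5 CPM against 21.1, 31.9 and 48.4 CPM (1.76, adjusted p = 1.75e-05). YPS3, a cell wall protease gene of the yapsin family, gave 1.32 (adjusted p = 7.92e-04) and INO2, an activator gene of phospholipid synthesis, 1.30 (0.00245). INO2 was at 55.1, 61.5 and 26.3 CPM in overexpression and 25.3, 22.1 and 26.4 CPM in control, so overexpression 3 sat with the control. Of the genes called without those libraries but not with all, AUA1 lay farthest above control in overexpression 3. It was at 206 CPM there and 30.04 and 52.0 CPM in overexpression 1 and 2, against 8.44, 7.97 and 13.2 CPM in control (2.23, adjusted p = 5.27e-04). SRO77, GSC2, YPS3 and AUA1 were also called with a term for those libraries (adjusted p up to 0.0141), and INO2 was not (0.116). AUA1 overlaps WWM1 on the opposite strand over 167 bases, and no source used here says whether the counting used strand.

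**Figure D5:**
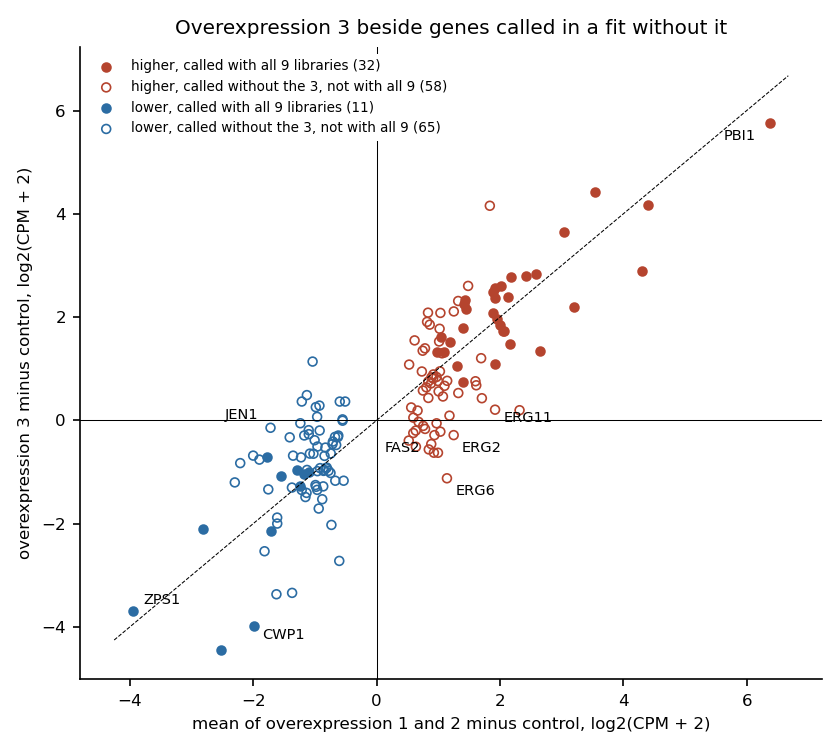
Each point is 1 of the 166 genes called without overexpression 3 and the other low-YLR154W libraries: horizontal, mean of overexpression 1 and 2 minus control; vertical, overexpression 3 minus control, both on the log2(CPM + 2) scale. Of the 90 red genes (called higher) 70 were above every control library in overexpression 3, and of the 76 blue genes (called lower) 61 were below; the dashed line marks equal differences.

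Against the libraries labelled deletion, 37 genes (0.727% of 5090) differed from overexpression. Of the 32 genes called higher against control 22 were also higher here, and of the 11 called lower 2, ZPS1 and ELO1 (32 and 5 with a term for the low-YLR154W libraries). This comparison uses the same overexpression libraries, so its values are given beside the first ones and are not independent of them. YET3 itself was counted at 728, 328 and 640 CPM in the libraries labelled deletion 1 to 3, so the row does not show the loss that the label states, and the labels do not say which part of the gene it counts. For the genes called higher the median log2 fold change was 1.64 against deletion and 2.02 against control. PBI1 was at 4.14, 0 and 7.99 CPM in the libraries labelled deletion and gave 6.55 against them (SE 0.51, adjusted p = 1.91e-05), and TIR1 was at 10.6, 10.6 and 10.7 CPM and gave 5.16 (adjusted p = 3.23e-06). Both were thus as low in those libraries as in control. For the genes called lower the median was -1.01 against deletion and -1.44 against control. The same genes had medians of 0.20 (called higher) and -0.70 (called lower) in deletion minus control. ZPS1 at 248, 302 and 493 CPM and ELO1 at 143, 129 and 184 CPM in the libraries labelled deletion gave -4.17 and -1.71 (adjusted p = 1.91e-05 and 0.00673). ICL1, at 93.4, 111 and 147 CPM there, lay between overexpression and control and gave -1.23 (adjusted p = 0.241), and IDP2 at 13.6, 31.9 and 21.3 CPM gave -0.56 (adjusted p = 0.858).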

How the data were processed

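RNA was sequenced from 3 libraries of each of 3 yeast strains. The authors deposited, for each library, whole-number counts of 6631 open reading frames, and cutadapt, UMI-tools and build R64 are named in the submitters' processing notes. No source used here names the aligner, the counting window or the use of strand, or says whether molecules or reads were counted, so counting intervals cover counting error only. Repeated identifiers were used once, which left out 2 rows. Of 6629 identifiers 5956 matched RefSeq R64, the source of symbols and promoter sequence, and the others kept their own name. One further promoter sequence with a matched core is not reported here.

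Genes were filtered with filterByExpr of edgeR 4.0.16 (minimum count 10, minimum total 15), scaled by TMM, and all 9 libraries (223189 to 1634021 counts) entered 1 fit with a coefficient per group. Adjusted p-values come from edgeR's quasi-likelihood F-test with Benjamini-Hochberg adjustment over all genes tested, at 0.05, and a gene past it is said to be called. Log2 fold changes are overexpression minus control, SE was taken from each fold change and its F statistic (absolute value over root F), and CPM are TMM-scaled. Counting intervals are exact binomial at 95%. Alternatives were DESeq2 1.42.0 size factors and Wald test, other filters, the 6 libraries alone, a replicate block, removal of the YET3 and HO rows, removal of the 3 libraries whose YLR154W rows hold under 0.5% of counts or a term for them, and each library left out. The fits were tested on simulated data.

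Lists were described by the number of members called and the median, with no test of the list. The comparison, the 65 lists, the motifs and the alternatives were chosen with earlier results of these data known. The 600-base window, the setting of overexpression 3 beside calls made without it, and the paralogues of called genes were chosen after the data were seen. The text names YET3, HO, every called gene, the largest changes called without the low-YLR154W libraries but not with all and up to 4 members of a list with the smallest p-values. Any other named gene was chosen after its values were seen.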

Additional observations from a re-analysis of the deposited data

How the results depend on the processing

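The 32 higher and 11 lower genes became 43 and 18 with the DESeq2 Wald test, 90 and 76 without the low-YLR154W libraries and 72 and 41 with a term for them, while DESeq2 size factors, no filter, the stricter filter and a fit of the 6 libraries gave 31 to 33 higher and 8 to 11 lower genes, as did leaving out the YET3 and HO rows. Leaving out 1 library at a time gave 9 to 35 higher genes, 2 to 11 lower genes and 7 to 19 lists with a called member. Lists with a called member numbered 19 with all libraries, 38 without the low-YLR154W libraries and 30 with a term for them. Of the 43 called genes 24 (22 of 32 higher and 2 of 11 lower) were called in the same direction against the libraries labelled deletion, and 37 (32 and 5) with the term. The median of all genes moved by at most 0.015 over the alternatives.

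Replicate numbers did not pair the libraries: the deviations from the group means of same-numbered overexpression and control libraries correlated at -0.078, 0.002 and -0.141. With the replicate number as a block 23 genes were called higher and 4 lower, and 12 lists held a called member.

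No called gene changed sign in any alternative. Among genes named without a call, these crossed 0 without the low-YLR154W libraries and with a term for them: ELO2 (-0.20 and -0.13), IDP1 (-0.19 and -0.13), COX5B (-0.11 and -0.0745) and ICL2 (-0.0977 and -0.15). With 1 library left out they ranged over -0.16 to 0.51, -0.12 to 0.63, -0.12 to 0.29 and -0.0828 to 0.17, with the low ends without overexpression 3. ELO3 then ranged over -0.14 to 0.17, below 0 without overexpression 1 and without control 3, and NRG1 over -0.53 to 0.0237, above 0 without control 2. The cause was not tested. Depth limits the genes near 3 counts, which stand for 1.85 to 13.4 CPM before scaling in a library.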

Other observations

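Genes of several further processes were called without the low-YLR154W libraries but not with all of them, and the names here were chosen after their values were seen. All those named were also called in the fit with a term for these libraries (adjusted p up to 0.0487), except NTH2 (0.0611). By the DESeq2 Wald test on all libraries BAP2 and YHB1 were called too (adjusted p = 0.0444 and 3.11e-04). GUT2, the glycerol phosphate dehydrogenase gene of the mitochondrion, was at 95.1, 91.4 and 144 CPM in overexpression and 186, 184 and 198 CPM in control (log2 fold change -1.003 in that fit, adjusted p = 6.41e-04, and adjusted p = 0.274 with all libraries). BAP2 and BAP3, branched-chain amino acid permease genes, gave -0.85 and -0.76 (adjusted p = 0.00116 and 0.0129, and 0.148 and 0.468 with all libraries). BAP2 was at 252, 251 and 188 CPM in overexpression and 386, 446 and 563 CPM in control. GLG1 and NTH2, of glycogen and trehalose metabolism, gave -0.83 and -0.93 (adjusted p = 0.0123 and 0.0441, and 0.353 and 0.167 with all libraries). In these 5 genes the groups did not overlap, overexpression 3 included, as in 17.0% of all tested genes. The 5 were picked from calls that used the same controls, so this describes them and is no test.

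TRP5, the tryptophan synthase gene, was at 335, 353 and 306 CPM in overexpression and 189, 211 and 189 CPM in control (0.79, adjusted p = 0.00116, and adjusted p = 0.207 with all libraries). ATG5, of autophagy, was at 110.1, 113.5 and 109 CPM in overexpression and 66.1, 67.4 and 44.0 CPM in control (0.81, adjusted p = 0.0175, and adjusted p = 0.208 with all libraries). YHB1, a flavohemoglobin gene, was at 1110, 1007 and 982 CPM in overexpression and 556, 563 and 558 CPM in control, and just missed the threshold with all libraries (0.89, adjusted p = 0.0550). The overexpression libraries differed widely for HSP30, a plasma membrane heat shock protein gene, at 285, 496.5 and 855.5 CPM in overexpression and 934.5, 851 and 884 CPM in control (-1.18 without the low-YLR154W libraries, adjusted p = 4.07e-05, and -0.71 with all, adjusted p = 0.744).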
